A study of Mus musculus with 2 samples.

Results

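The genes described here are 7 subunit genes of the pumps that move sodium, potassium and calcium against their gradients: Atp1b1 and Atp1b2 (beta subunits of the sodium-potassium pump), Atp2a2 (calcium pump of the endoplasmic reticulum) and Atp2b1, Atp2b2, Atp2b3 and Atp2b4 (calcium pumps of the plasma membrane). They were chosen by symbol, and all 7 had a line among the 32531 gene symbols of the count tables. The data come from ribosome-bound RNA of the dentate gyrus of adult, untreated mice that carry the Lypd1-EGFP/Rpl10a transgene (line OI82), in 2 libraries of 1 group. In such a line the regulatory sequence of Lypd1 drives a ribosomal protein, Rpl10a, tagged with EGFP, and tagged polysomes are immunopurified from the homogenised tissue (translating ribosome affinity purification, TRAP). Both libraries carry the transgene and both are pull-downs, so every level is one within purified RNA, with no unpurified tissue to set it against. Whether each library came from its own animals is not stated, so part of the difference between them may be technical.

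The sodium-potassium pump is a P-type ATPase built from a catalytic alpha subunit, which hydrolyses ATP and binds the ions, and a glycosylated beta subunit, which carries alpha to the surface and tunes its affinity. It restores the sodium and potassium gradients that neurons spend on action potentials and synaptic currents. The sarco-endoplasmic reticulum calcium ATPase (SERCA) refills the internal calcium store, and the plasma membrane calcium ATPase (PMCA) expels calcium from the cytosol with high affinity and is switched on by calmodulin. Sodium-calcium exchangers and potassium-dependent exchangers also expel calcium, and they use the sodium gradient that the sodium-potassium pump maintains.

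Counts on genes totalled 31309643 in replicate 1 and 32711412 in replicate 2. The 5 granule cell markers, among them Prox1 (1100 and 1193 CPM, that is counts per 1000000 counts on gene lines), were all detected, and their summed levels were 3457 and 3456 CPM. Summed levels of other marker lists were 466 and 502 CPM for 7 astrocyte genes, 149.7 and 120.5 CPM for 4 oligodendrocyte genes, 73.8 and 121 CPM for 6 GABAergic genes and 1.76 and 0.978 CPM for 4 microglial genes, of which C1qa and C1qb had 0 counts in both. Slc1a2 alone was at 389 and 413 CPM of the astrocyte sum. Gad1 (50.02 and 75.6 CPM) and Gad2 (19.7 and 42.8) made up most of the GABAergic sum. Pvalb, with 3 and 10 counts (0.0958 and 0.306 CPM), was also higher in replicate 2. Sst (3.16 and 2.17 CPM) and Slc32a1 (22 and 12 counts, or 0.703 and 0.367 CPM) were lower there. Vip had 5 counts in each library (0.160 and 0.153 CPM). Markers of other hippocampal neurons summed to 220 and 221 CPM for 3 CA3 genes, of which Cpne4 alone was at 203 and 206, to 105 and 78.2 CPM for 3 CA1 genes, to 32.9 and 24.9 CPM for 3 CA2 genes and to 8.05 and 3.67 CPM for 4 mossy cell genes. Of 6 activity-regulated genes 5 were higher in replicate 2, with summed levels of 510 and 3164 CPM. Egr3 (304 and 2071 CPM), Homer1 (151 and 767) and Arc (33.2 and 265) made up most of that sum, Fosb was at 14.9 and 56.0 and Fos at 1.92 and 3.03, and Npas4 was lower in replicate 2, at 4.82 and 2.35. In these bulk pull-downs, fewer cells of a type and less RNA per cell cannot be told apart.

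The PMCA genes are close relatives, and how far their reads can be told apart depends on their sequence. Over the longest coding transcript of each gene in GENCODE M21 (GRCm38, the build the submitters name as mm10), the 4 genes shared 72.0% to 78.2% of aligned bases. The pair with the longest identical stretch was Atp2b2 and Atp2b3, at 56 bases. The other PMCA pairs shared at most 20 to 35 bases, and the beta subunit genes Atp1b1 and Atp1b2 shared 61.4% of aligned bases and at most 19 in a row. The window around this longest stretch is shown. Untranslated sequence and other transcripts were not compared, and where reads of these genes are hardest to assign was not tested. It covers the 56 bases with 20 on either side, 5′ to 3′ on the coding strand, and capitals mark bases that differ from Atp2b2.
Atp2b2: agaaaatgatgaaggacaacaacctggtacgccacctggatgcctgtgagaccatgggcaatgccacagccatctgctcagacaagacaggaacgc
Atp2b3: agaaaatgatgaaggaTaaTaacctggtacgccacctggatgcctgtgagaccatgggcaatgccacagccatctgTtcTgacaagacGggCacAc
Atp2b1: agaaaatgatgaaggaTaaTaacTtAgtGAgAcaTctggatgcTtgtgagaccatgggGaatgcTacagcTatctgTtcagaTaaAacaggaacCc
Atp2b4: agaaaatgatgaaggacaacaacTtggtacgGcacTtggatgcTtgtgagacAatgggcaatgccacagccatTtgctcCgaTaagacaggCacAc
Atp2b3 differed from Atp2b2 at 7 of these 96 bases, all in the flanks, Atp2b4 at 10 and Atp2b1 at 16. Within the 56 bases, Atp2b4 differed at 6 and Atp2b1 at 10. All but the first 2 bases of each window lie in 1 coding exon, at chr6:113789902-113789995 on the minus strand for Atp2b2, chrX:73536885-73536978 on the plus strand for Atp2b3, chr10:98999739-98999832 on the plus strand for Atp2b1 and chr1:133731812-133731905 on the minus strand for Atp2b4. The read length is not given in the sources used here. A read that lies wholly inside the identical stretch would align to both genes and would be left out of both counts where non-unique alignments are not counted.

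The same view of the beta subunits, around their 19 shared bases, shows how quickly they part. Capitals mark bases that differ from Atp1b1, and the window was placed without gaps.
Atp1b1: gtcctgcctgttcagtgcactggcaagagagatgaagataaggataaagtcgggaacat
Atp1b2: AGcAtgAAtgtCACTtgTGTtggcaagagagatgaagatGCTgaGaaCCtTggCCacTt
They differed at 22 of 59 bases, all outside the shared 19. The window crosses an exon junction in both genes, with blocks at chr1:164439299-164439325 and chr1:164438508-164438539 for Atp1b1 and at chr11:69602425-69602451 and chr11:69601592-69601623 for Atp1b2, all on the minus strand.

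Atp1b1, the beta subunit found broadly in neurons, stood far above the other pump genes. The gene, protein-coding like the other 6, lies on the minus strand of chromosome 1 (164437109 to 164458355) and was counted 72788 times in replicate 1 and 87942 times in replicate 2, or 2325 and 2688 CPM (2507 ± 257, SD, n = 2). Levels of different genes are compared here per kilobase (kb) of merged exons, the length covered by any annotated exon of the gene. On that scale Atp1b1 was at 755 and 873 CPM per kb, above 99.9% of the 11449 detected genes with a length in both libraries, whose median was 5.35 and 4.99 CPM per kb. Genes are called detected where both libraries reach 1 CPM. Nme7, on the opposite strand, overlaps 18.7% of the merged exons of Atp1b1 and had 201 and 265 counts. The strand setting of the counting is not given in the sources used here, so reads in the overlap may have been set aside as ambiguous.

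Atp1b2, the beta subunit also known as the adhesion molecule on glia, is on chromosome 11 (69599736 to 69605942, minus strand). Its 8333 counts in replicate 1 and 5036 in replicate 2 amount to 266 and 154 CPM (210 ± 79.3), or 65.2 and 37.7 CPM per kb. Replicate 2 was the lower library for Atp1b2 and the higher one for Atp1b1. Atp1b1 therefore exceeded Atp1b2 by 11.6 times per kb in replicate 1 and by 23.2 times in replicate 2. Of all 4 beta genes, Atp1b1 made up 91.7% and 95.3% per kb and Atp1b2 7.92% and 4.12%. Atp1b3, another beta subunit gene, had 248 and 428 counts (7.92 and 13.1 CPM), and Atp1b4 had 0 counts, which allows up to 0.0958 CPM in replicate 1 and 0.0917 CPM in replicate 2.

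Atp2a2, which encodes SERCA2, the form of the pump in brain and heart, is on chromosome 5 (122453513 to 122502225, minus strand). It had 18880 and 23924 counts, which is 603 and 731 CPM (667 ± 90.8), or 99.2 and 120 CPM per kb. Both libraries placed it above 97.7% of detected genes per kb. It was nearly the whole SERCA family, with 99.77% of the family's counts in replicate 1 (95% exact Clopper-Pearson interval 99.69% to 99.84%) and 99.94% in replicate 2 (99.90% to 99.97%). The skeletal muscle form Atp2a1 had 8 and 6 counts, and Atp2a3 had 35 and 8. The transcript forms of Atp2a2 are counted together.

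The plasma membrane pumps were led by Atp2b1 in reads. Atp2b1, the widely expressed form PMCA1, is on chromosome 10 (98914406 to 99026143, plus strand) and had 27978 and 36274 counts, which is 894 and 1109 CPM (1001 ± 152). Atp2b2, the form PMCA2, which is prominent in cerebellar Purkinje cells and hair cells, is on chromosome 6 (113743831 to 114042613, minus strand) and had 15253 and 14445 counts, which is 487 and 442 CPM (464 ± 32.2). Atp2b3, the form PMCA3, found mainly in brain, is on chromosome X (73503086 to 73571005, plus strand) and had 11201 and 10459 counts, which is 358 and 320 CPM (339 ± 26.9). In both libraries the reads fell in the order Atp2b1, Atp2b2, Atp2b3.

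Atp2b4, the form PMCA4, is on chromosome 1 (133699457 to 133801041, minus strand) and was the scarcest of the 7 genes. It had 3102 and 2339 counts, which is 99.1 and 71.5 CPM (85.3 ± 19.5). Per kb it was at 8.09 and 5.84 CPM, above 60.8% and 54.1% of detected genes, close to the middle, where the other 6 genes lay above at least 89.96% in each library. Its 5.39% (5.21% to 5.58%) and 3.68% (3.54% to 3.83%) of PMCA counts were the smallest share in both libraries.

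The order per kb depended on which length was used, in the PMCA family above all. Per kb of merged exons it ran Atp1b1 (814 ± 83.5 CPM per kb), Atp2a2 (110 ± 14.9), Atp2b3 (70.3 ± 5.58), Atp2b1 (65.8 ± 10.005), Atp1b2 (51.4 ± 19.4), Atp2b2 (36.8 ± 2.56) and Atp2b4 (6.96 ± 1.59). Of the 6 pairs of neighbours, 3 did not overlap between libraries: Atp1b1 over Atp2a2, Atp2a2 over Atp2b3, and Atp2b2 over Atp2b4. The values of Atp2b1 (58.7 and 72.9 CPM per kb) crossed those of Atp2b3 (74.2 and 66.3) and of Atp1b2 (65.2 and 37.7). The place of Atp2b1 therefore differed between the libraries. Atp2b3 and Atp1b2, which are not neighbours in the order, did not cross: Atp2b3 was above Atp1b2 without overlap between libraries. Atp1b2 was above Atp2b2 (38.6 and 35.0) in each library, but their values overlapped between libraries. With TMM-scaled totals or DESeq2 size factors, 4 pairs did not overlap. No test was run on these differences between genes, and the order is a description of the 2 libraries.

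The merged exons of Atp2b1 span 15218 bases over 11 annotated transcripts, while its longest transcript has 7130 and its coding part 3660. For Atp2b3 the 3 lengths are 4820, 4637 and 3660 bases, so the choice moves Atp2b1 against Atp2b3. Per kb of the longest transcript Atp2b1 was at 125 and 156 CPM per kb and Atp2b3 at 77.2 and 69.0. Per kb of coding length they were at 244 and 303 against 97.7 and 87.4, and Atp2b1 was then second of the 7 genes by mean, though in replicate 1 Atp1b2 was above it at 306 CPM per kb. Atp1b1 ranked first and Atp2b4 last with each of the 4 lengths tried.

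**Figure D1:**
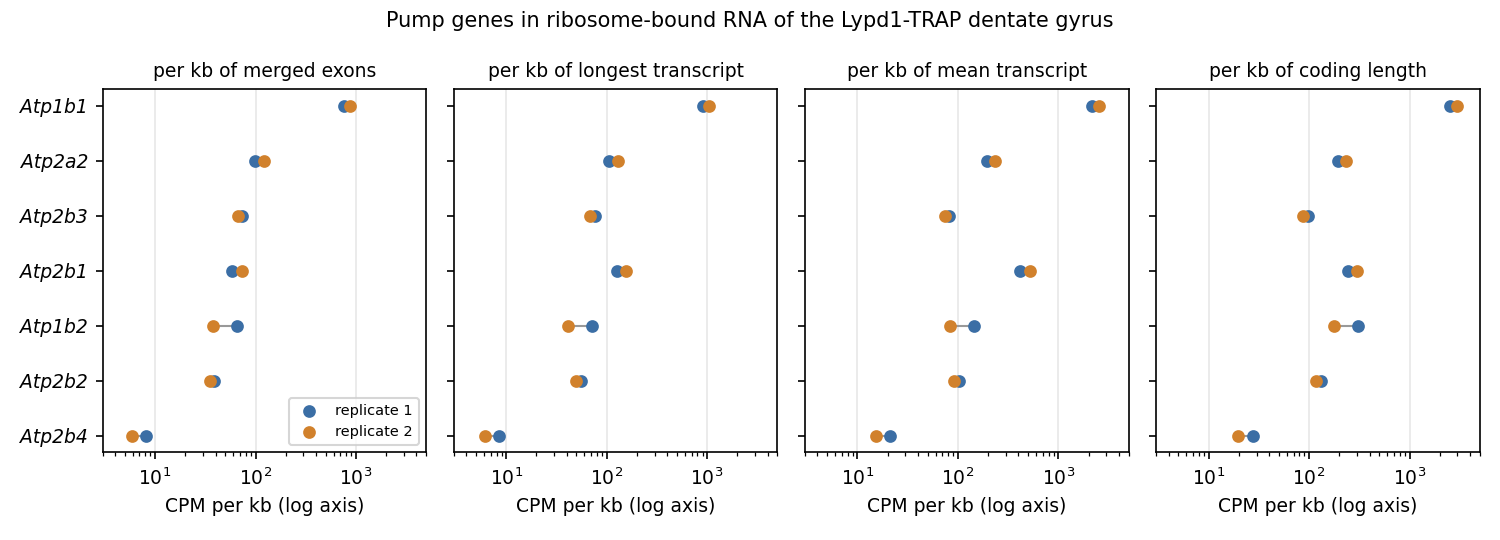
Levels of the 7 pump genes in CPM per kb on a log axis, with 1 point per library and a line joining the 2 libraries. The 4 panels divide by merged exons, longest transcript, mean transcript length and coding length. Atp1b1 lies at the top and Atp2b4 at the bottom in every panel, and Atp2b1 moves from 65.8 CPM per kb with merged exons to 274 with coding length.

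Within the PMCA family, Atp2b1 took 48.6% (48.2% to 49.0%) of the counts in replicate 1 and 57.1% (56.7% to 57.5%) in replicate 2. Atp2b2 took 26.5% and 22.7%, and Atp2b3 19.5% and 16.5%. Per kb of merged exons the shares were 32.7% and 40.5% for Atp2b1, 41.3% and 36.8% for Atp2b3 and 21.5% and 19.4% for Atp2b2. The larger of Atp2b1 and Atp2b3 then differed between libraries, whereas per kb of the longest transcript, the mean transcript or the coding length Atp2b1 was the larger in both. These intervals, and the limits from 0 counts, hold counting error alone and leave out variation between libraries. They take each read as independent, and no molecular identifiers mark the reads, so they may be too narrow.

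**Figure D2:**
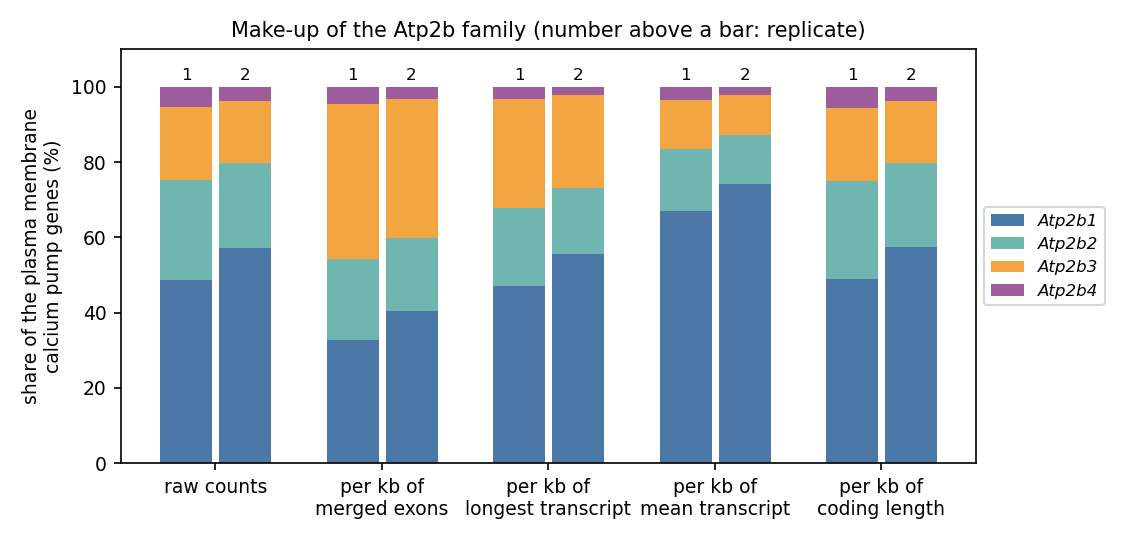
Share of each Atp2b gene in the family, in percent, as stacked bars with 1 bar for each library (numbered above) and 5 ways of counting. Atp2b1 holds 48.6% and 57.1% of raw counts but 32.7% and 40.5% per kb of merged exons, where Atp2b3 reaches 41.3% and 36.8%.

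Compared between the libraries, the 7 genes did not move as 1 group. The log2 ratio of replicate 2 to replicate 1, on TMM-scaled totals, was positive for 3 genes: Atp2b1 (0.40, 95% counting interval 0.38 to 0.43), Atp2a2 (0.37, 0.34 to 0.40) and Atp1b1 (0.30, 0.29 to 0.32). Atp2b2 (-0.05, -0.08 to -0.02) and Atp2b3 (-0.07, -0.11 to -0.03) were nearly level. Atp2b4 (-0.38, -0.46 to -0.30) and Atp1b2 (-0.70, -0.75 to -0.65) were lower in replicate 2. The median of the 7 was -0.05, against 0.03 over all 8442 genes whose mean CPM reached 10. With library totals alone the 7 ratios and that median were each 0.09 lower, and none of the 7 changed sign.

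Only Atp1b2 of the 7 passed 1.5-fold, by 1.62-fold lower in replicate 2, and none passed 2-fold. Of all genes whose mean CPM reached 10, 16.6% passed 1.5-fold in either direction (9.44% higher and 7.12% lower in replicate 2), and 3.19% passed 2-fold. A count of 1 in 7 is near that background. These ratios compare 1 library with another and not conditions.

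**Figure D3:**
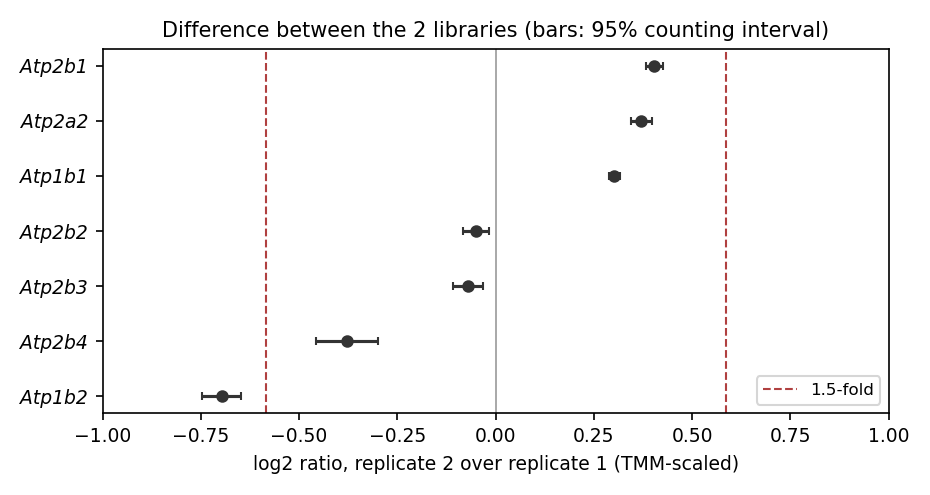
Log2 ratio of replicate 2 to replicate 1 for each of the 7 genes on TMM-scaled totals, with bars for the 95% counting interval and dashed lines at 1.5-fold. Atp2b1, Atp2a2 and Atp1b1 lie between 0.30 and 0.40, and Atp1b2, at -0.70, is the one gene beyond a dashed line.

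Atp1b2 is known as a glial as well as a neuronal gene, so the markers of other cells are given beside it. Of the 7 astrocyte markers 6 were detected and 4 of those were higher in replicate 2, the library in which Atp1b2 was lower. Slc1a2, a glutamate transporter, was at 389 and 413 CPM, Aldoc at 26.4 and 30.9, Slc1a3 at 21.4 and 27.6, Aqp4 at 16.8 and 14.3, Gfap at 7.09 and 12.0, Gja1 at 4.31 and 3.88, and Aldh1l1 at 0.958 and 0.887 CPM. Of the 4 oligodendrocyte markers 3 were lower in replicate 2, with Mbp at 126 and 99.3 CPM. Both oligodendrocyte precursor markers were higher in replicate 2, Pdgfra at 2.75 and 8.99 CPM and Cspg4 at 3.32 and 5.99. All 3 choroid plexus and ependymal markers were lower in replicate 2, and none was at 0 in both. Their summed level was 58.3 CPM in replicate 1 and 27.0 in replicate 2, of which Kl alone was at 49.98 and 25.9. Foxj1 was at 2.46 and 1.01 CPM, and Ttr had 182 and 4 counts. The part of these cells in the level of Atp1b2 was not tested. The activity-regulated genes were higher in replicate 2 with the exception of Npas4, and their part in the higher values of Atp1b1, Atp2a2 and Atp2b1 was not tested. Lypd1, whose regulatory sequence drives the tag, was at 265 and 194 CPM.

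The FXYD genes, which encode small regulators of the sodium-potassium pump, were low. Of 7, 3 were detected in both libraries: Fxyd6 (5.17 and 3.70 CPM), Fxyd1 (1.44 and 1.01 CPM) and Fxyd2 (1.31 and 1.25 CPM). Fxyd5 had 19 and 66 counts (0.607 and 2.02 CPM), so it fell below the threshold in replicate 1 and was above Fxyd1 and Fxyd2 in replicate 2. Fxyd7, known from brain, had 33 and 8 counts, and Fxyd3 had 0. The gastric and colonic relatives Atp4a, Atp4b and Atp12a also had 0 counts in both libraries.

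The listed small peptides that regulate SERCA had few reads beside Atp2a2, and none with a line reached 1 CPM in both libraries. Phospholamban (Pln) had 33 and 3 counts (1.05 and 0.0917 CPM), sarcolipin (Sln) 1 and 3, and myoregulin (Mrln) 1 and 0. Strit1 was not matched to a line and was not analysed here. Atp2c1, the secretory pathway calcium pump of the Golgi, was at 143 and 124 CPM, and its relative Atp2c2 had 6 and 31 counts.

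Neuroplastin (Nptn) and basigin (Bsg), membrane glycoproteins that assemble with PMCA as subunits, were both detected. Nptn was at 276 and 226 CPM (44.7 and 36.7 CPM per kb) and Bsg at 169 and 132 CPM (93.1 and 73.0 CPM per kb). Per kb Nptn lay between Atp2b2 and Atp2b1 in both libraries with each of the 4 lengths. Bsg lay above each of the 4 PMCA genes per kb of merged exons, by little in replicate 2, where Atp2b1 was at 72.9. That order turned with the other 3 lengths: per kb of the longest transcript Bsg was at 111 and 86.7 CPM per kb, below Atp2b1 at 125 and 156. The 4 PMCA genes together summed to 179.7 and 180.1 CPM per kb.

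The other routes of calcium export were lower per kb than PMCA with most lengths. The sodium-calcium exchangers summed to 48.0 and 45.2 CPM per kb, so that PMCA was 3.74 and 3.98 times as high. Per kb of the longest transcript that ratio was 5.50 and 6.17, and per kb of the mean transcript 8.86 and 10.6. Slc8a2 (NCX2) led them at 39.8 and 37.6 CPM per kb, Slc8a1 (NCX1) was at 6.86 and 6.53, Slc8a3 (NCX3) at 1.40 and 0.889, and the mitochondrial exchanger Slc8b1 had 3 and 23 counts. The potassium-dependent exchangers summed to 114 and 88.2 CPM per kb, and PMCA was 1.58 and 2.04 times as high. Slc24a2 (NCKX2), the neuronal form, led them at 74.5 and 58.1 CPM per kb, followed by Slc24a3 at 30.1 and 20.7, Slc24a4 at 7.96 and 8.29 and the melanosomal form Slc24a5 at 1.30 and 1.14. Per kb of coding length, PMCA was 0.963 and 1.31 times the potassium-dependent exchangers, so that order turned in replicate 1.

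Across the list of 31 related genes, 30 had a line, 14 were detected and 5 had 0 counts in both libraries. Of the 9 whose mean CPM reached 10, 1 passed 1.5-fold between the libraries, Atp1b3, which was higher in replicate 2 with a log2 ratio of 0.81. That share is also near the background of 9.44% for that direction.

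**Figure D4:**
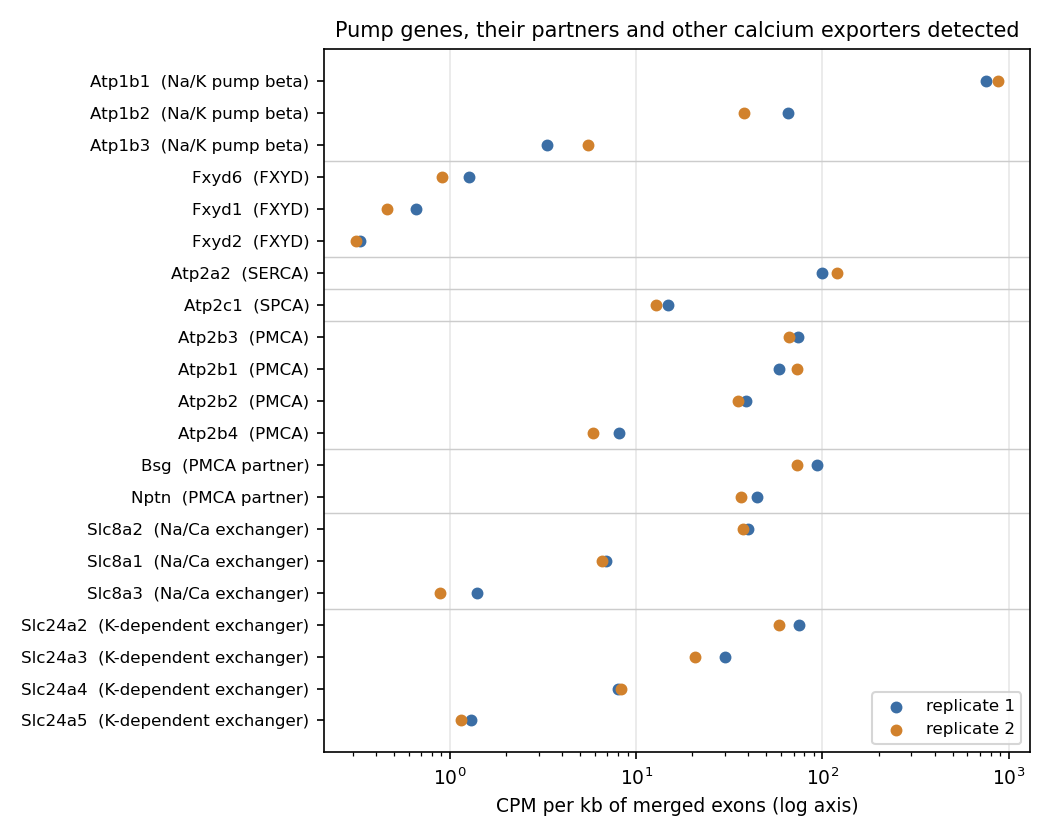
Detected pump genes, partners and other calcium exporters in CPM per kb of merged exons on a log axis, with 1 point per library, grouped by family. Atp1b1 lies highest, at 755 and 873, and the 3 FXYD genes lie lowest by mean on this length, none above 1.26. Fxyd6 has 4107 bases of merged exons and 282 of coding length, and its place with other lengths was not computed.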

How the data were processed

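Ribosome-bound RNA of 2 immunopurified dentate gyrus libraries of 1 group was analysed. The deposited values are raw counts per gene symbol. The submitters' processing notes name HTSeq, STAR 2.0.0e and build mm10. The annotation used and any strandedness option were not stated in the labels. HTSeq's summary lines and the line unknown (0 counts) were kept out of totals, which left 65.0% and 64.9% of counts on genes.

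CPM, lengths (GENCODE M21, GRCm38) and shares were computed in Python. Ratios used edgeR 4.0.16 TMM totals and a prior count of 2, with DESeq2 1.42.0 size factors as an alternative. The ratio step was run on simulated data, where medians over groups of genes, averaged over draws, were checked. That check does not cover the ratio of any single gene. With 1 group there is no test between conditions and no p-value. Of 12402 detected genes, 92.3% had a length. Coding sequences came from GENCODE transcripts, and protein sequences were not used here.

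The members and lists were chosen with earlier results of these data known. Named genes were all members, every detected related gene (some listed genes are not reported here), related genes with 0 counts, the highest and lowest markers and all astrocyte markers. Fxyd5, Fxyd7, Atp2a1, Atp2a3, Atp2c2, Pln, Sln, Mrln, Slc8b1, Nme7 and the activity-regulated genes other than Egr3 were named after their values were seen. So were the GABAergic markers, Kl, Foxj1, Pdgfra and Cspg4. No likeness of pattern to other genes is given, since 2 libraries give every pair a correlation of 1 or -1.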

Additional observations from a re-analysis of the deposited data

Results flagged for a closer look

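Reads that overlapped several genes were used in no comparison, and they hold signal above the limit that a count of 0 allows. Their share of the whole table was 2.61% for replicate 1 and 2.56% for replicate 2. Of the 7 pump genes, Atp1b1 shares 575 bases of exon with Nme7, on the opposite strand, Atp2a2 shares 83 with a gene model of unknown coding status that has no line in the tables, and Atp2b4 shares 6 with a microRNA gene. How many of these reads belong to Atp1b1 was not tested.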

How the results depend on the processing

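Of 142 values under another setting, 107 stayed within the allowance and 35 moved. The allowance was 1 SD between libraries for levels and shares, 1.5 times for counts and percents of all genes, and the counting interval for ratios. Ranks had to be equal, and identities had to lie within their exact Clopper-Pearson interval. A change of sign was looked for in the log2 ratios alone, and none of them changed sign. For levels and shares, leaving out 1 of the 2 libraries never shifts the mean by more than 1 SD. Those values are among the 107 by construction and say nothing on stability. The share of Atp2b1 in PMCA, 36.6% per kb of merged exons, was 52.9% in counts, 51.3% per kb of the longest transcript and 53.1% per kb of coding length. Pairs of neighbours told apart per kb were 3, and 5 with the mean transcript length. Leaving out 1 library gave 5032 to 5515 CPM for the 7 genes summed, 91.7% to 95.3% for Atp1b1 in beta, 32.7% to 40.5% for Atp2b1 in PMCA and 15 to 17 detected related genes. Detected related genes were 14, and 9 at a threshold of 5 CPM. Without a filter, 35.0% of genes passed 1.5-fold, and 26.9% at a mean CPM of at least 1. Coding length, and the longest transcript for shares, were chosen after the lengths were seen. Identity between proteins was not run, and coding sequences were compared instead; over the shorter sequence identity was 58.6% for the beta pair and 71.3% to 77.7% for PMCA pairs. A ratio between libraries and the order by overlap have no value with 1 library left out. No paired analysis between conditions was possible because there is 1 group. The overlap rule for the order of genes does not use the pairing of genes within a library.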
